A study of Mus musculus with 4 samples.

Results

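Thyroid hormone genes were followed from the hormone's entry into the cell to its target genes in cortical neural stem cells with and without a conditional knockout of Prrc2b, which encodes an RNA-binding protein. The 9 genes were the carrier Ttr, the transporter Slco1c1, the intracellular binding protein Crym, the deiodinases Dio2 and Dio3, the receptors Thra and Thrb, and the target genes Klf9 and Hr. They were taken by symbol from the 24421 genes listed for each library, with or without reads. They were chosen from results of this same knockout against control comparison. Their levels and fold changes are therefore given as a description; where it is said which of them passed the threshold of the fit over all genes, that too is a description and no evidence of a change.

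Both groups were cultured from the cerebral cortex of C57BL/6J embryos at embryonic day 17, dissociated and grown for 1 day in Neurobasal A and DMEM/F12 with 2% B27 and the growth factors bFGF and EGF, each at 10 ng/mL. Controls were Prrc2bf/f, homozygous for a floxed Prrc2b allele and without a Cre transgene. Knockouts were Prrc2bf/f; Nestin-Cre, with the same floxed alleles and a Cre recombinase driven by the regulatory sequence of Nestin, a gene of neural progenitors. Each group had 2 poly(A) RNA-seq libraries, and the labels do not say whether these came from separate embryos or cultures, so a p-value measures only the spread between these libraries.

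Thyroxine (T4) is the main circulating thyroid hormone and triiodothyronine (T3) is the form that binds the nuclear receptors. In brain, T4 is carried across barriers and into glia by transporters such as OATP1C1 (Slco1c1), is converted to T3 by the type 2 deiodinase (Dio2) in astrocytes and tanycytes, and both hormones are inactivated by the type 3 deiodinase (Dio3). T3 then acts through TRα and TRβ (Thra, Thrb) on target genes. B27 is a serum-free supplement that contains T3; no hormone was measured here.

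The sequence before the start of Dio2 is shown because Dio2 fell furthest among the 9 genes, and that of Klf9 because it is a hormone target to set beside it. Both are the 250 bases before the RefSeq start (GRCm38.p6), 5′ to 3′, with motif letters in capitals. The Dio2 stretch is chr12:90739039-90739288 on the minus strand, and the Klf9 stretch is chr19:23140976-23141225 on the plus strand.
Dio2: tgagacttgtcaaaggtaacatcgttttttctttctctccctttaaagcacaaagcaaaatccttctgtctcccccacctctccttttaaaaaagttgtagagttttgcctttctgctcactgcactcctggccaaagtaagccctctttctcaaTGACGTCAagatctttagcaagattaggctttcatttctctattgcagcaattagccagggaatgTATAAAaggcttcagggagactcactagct
Klf9: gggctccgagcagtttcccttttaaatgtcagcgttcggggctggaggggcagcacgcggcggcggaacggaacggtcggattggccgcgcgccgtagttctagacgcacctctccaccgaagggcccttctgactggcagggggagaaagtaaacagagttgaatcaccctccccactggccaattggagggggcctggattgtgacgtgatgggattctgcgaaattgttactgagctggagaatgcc
The capitals in the Dio2 stretch mark, from left to right, a full cAMP response element (TGACGTCA, chr12:90739126-90739133, its first base 95 bases before the start) and a TATA box (TATAAA, 30 bases before the start). Cyclic AMP is a known inducer of Dio2 in several tissues. The Klf9 stretch held neither motif, and neither stretch held AGGTCA, the half-site that thyroid hormone receptors bind. The well-known hormone response elements of Klf9 lie far upstream of this stretch. Each motif was searched on both strands in windows of 300 bases (250 before to 50 after each start), and no motif match overlapped another in these stretches. TGACGTCA occurred in 1.79%, TATAAA in 13.6% and AGGTCA in 16.3% of all 32851 RefSeq windows. Windows were examined by name for only 5 of the 9 genes, which were Dio2, Dio3, Thrb, Slco1c1 and Klf9. Those of Ttr, Thra, Crym and Hr were not examined, so nothing is said of motifs at their starts. Among the 5 genes examined, TGACGTCA was found at Dio2 alone, AGGTCA at Thrb alone, and TATAAA at Dio2, Dio3, Thrb and Slco1c1. The RefSeq start of Dio2 lies 600 bases upstream of the GENCODE M21 start, and the starts of Klf9 coincide. A match of letters is a description of the sequence and not evidence of a bound site.

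The libraries held 25936794 to 28263272 reads assigned to genes, so that 3 reads, used here as the floor of detection, correspond to 0.106 to 0.116 CPM (reads of a gene per 1e6 reads assigned to genes). Prrc2b itself was at 587 and 593 CPM in controls and 576 and 574 CPM in knockouts (log2 fold change -0.04). The labels do not say which exons are floxed, and a whole-gene count of poly(A) reads need not fall with them, so this value does not check the genotype. Uty, Kdm5d, Eif2s3y and Ddx3y, which lie on the Y chromosome, had 180 to 667 reads in each control library and 0 in both knockout libraries, and Xist was at 1639 CPM in controls and 2169 CPM in knockouts. Each control library thus held both Y-linked and Xist reads. Genotype, the Cre transgene and the mix of embryo sexes therefore cannot be told apart in any value below. The 12 neural stem cell and radial glia markers summed to 9786 to 9876 CPM in controls and 8365 to 8385 CPM in knockouts. Of these, 2 were higher, 6 were lower and 4 did not pass the test, and none was absent from either group. Over all genes, 15.1% were called higher and 18.1% lower. Nes was at 628 and 541 CPM. Markers of other cell types were also present. Those of the oligodendrocyte lineage summed to 1410 and 1452 CPM in controls and 1569 and 1609 CPM in knockouts (5 of 7 higher, 1 lower). Those of microglia summed to 6.04 and 7.68 CPM in controls and 3.30 and 2.43 CPM in knockouts (5 of 6 tested lower, none higher). Neuron and astrocyte markers are given beside Thra and Dio2.

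Transcripts of the hormone carrier rose and those of the activating enzyme fell in knockouts. Ttr was 7.03-fold higher and Dio2 2.95-fold lower. Crym was 1.66-fold lower. The other genes with a fit, Slco1c1, Thra, Thrb, Klf9 and Hr, lay between -0.20 and 0.24 on the log2 scale. Dio3 was at trace level in both groups and was not fitted. The fitted log2 fold changes of all 15012 genes with enough reads ran from -0.58 at the 5th percentile to 0.42 at the 95th, so only Ttr, Dio2 and Crym fell outside the range of most genes.

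Of the 8 genes fitted, 2 were called higher (Ttr, Thra), 4 lower (Dio2, Crym, Slco1c1, Klf9) and 2 neither (Thrb, Hr), at an adjusted p of 0.05 over all genes in edgeR. Over all 15012 genes 15.1% were called higher, 18.1% lower and 33.1% in either direction. With DESeq2, 2 of the 8 were called lower. The CPM of the groups did not overlap for any of the 8, which was the case for 65.1% of all genes. Since the 9 genes were chosen with this contrast in view, nothing is read from these counts. The median log2 fold change was 0.00 over the 8 and 0.00 over all genes.

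**Figure D1:**
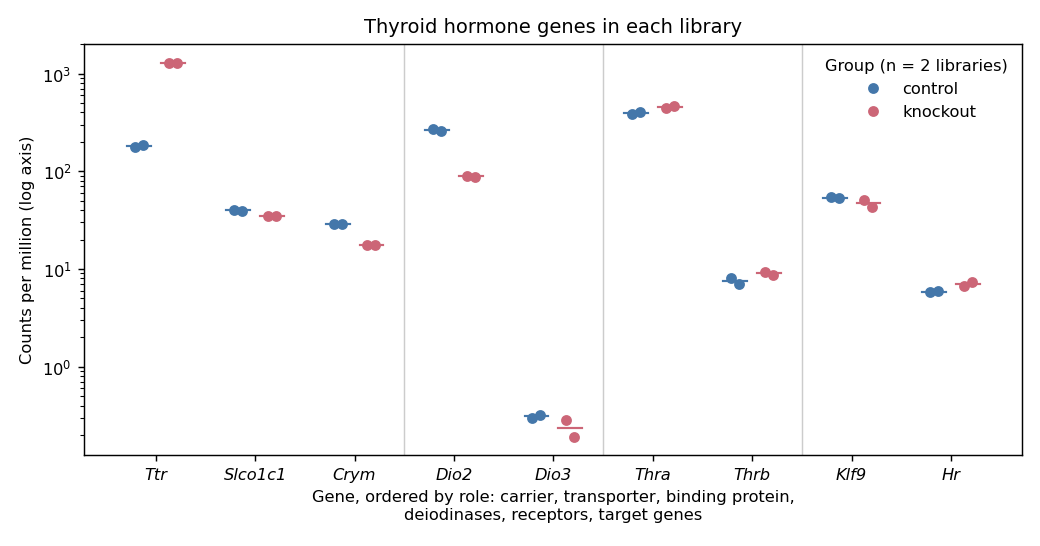
CPM (log axis) of the 9 thyroid hormone genes in each of the 4 libraries, with a line at the mean of each group of 2 libraries; vertical lines separate carrier and transport, deiodinases, receptors and target genes. Ttr rises from 178 and 185 to 1274 and 1293 CPM and Dio2 falls from 270 and 256 to 90.2 and 88.4 CPM, while the receptors and target genes shift little.

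Transthyretin, the product of Ttr, is a secreted T4-binding protein made in brain by the choroid plexus epithelium. Ttr (chr18:20665280-20674321, plus strand, GRCm38) was at 178 and 185 CPM in controls and 1274 and 1293 CPM in knockouts. Both knockout libraries were far above both controls, and the libraries of a group lay close together. On the log2 scale Ttr rose by 2.81 ± 0.02 (SE, n = 2 per group), the 9th highest of 15012 genes. Per kb of exon, Ttr rose from 153 to 1082 CPM, which moved it from rank 194 to rank 6 among 23376 genes with an exon length.

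Most listed markers of the choroid plexus epithelium rose, as Ttr did. They were chosen with earlier results of these data known, as were the other marker lists, so counts of them are a description. Over all genes, 15.1% were called higher and 18.1% lower. Of 12 markers, which did not include Ttr, 10 rose, none fell, and 2 did not pass the test, Otx2 and Prlr. Their summed level was 85.5 and 85.6 CPM in controls and 217 and 210 CPM in knockouts, and none of the 12 was at 0 in a library. The median log2 fold change of the list was 2.16, with a range of -0.86 to 2.99. Folr1, the choroid plexus folate receptor, was at 1.36 and 1.63 CPM in controls and 12.8 and 11.2 CPM in knockouts. Its log2 fold change was 2.99 ± 0.15, beside 2.81 for Ttr. Enpp2, which encodes autotaxin and is the most abundant marker on the list, rose from 47.3 to 108 CPM (log2 fold change 1.18 ± 0.04). Aqp1, the water channel of the choroid plexus, rose from 5.67 to 20.6 CPM (1.86 ± 0.10). Otx2, a transcription factor of the choroid plexus that other cells also make, was at 21.5 and 21.8 CPM. In bulk RNA, more cells of a type and more RNA per cell cannot be told apart, and the part of choroid plexus cells in the level of Ttr was not tested.

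Slco1c1 (chr6:141524368-141570177, plus strand) encodes the T4 transporter OATP1C1 of brain endothelium, choroid plexus and astrocytes. It was at 40.3 and 39.7 CPM in controls and 35.3 and 34.7 CPM in knockouts. Both knockout libraries were lower, by a small step beside that of Dio2 (log2 fold change -0.20 ± 0.05). Endothelial markers went both ways: of 9 tested, 2 rose, 3 fell and 4 did not pass the test. Of the 9, 55.6% were called, against 33.1% of all genes. Flt1, a VEGF receptor gene, fell from 11.9 to 4.23 CPM and Mfsd2a, a lipid transporter gene of the blood-brain barrier, rose from 16.6 to 23.7 CPM. Their sum, 38.7 to 40.4 CPM in controls and 38.7 to 40.2 CPM in knockouts, adds rises and falls and gives no level of the cell type, and the part of endothelial cells in the level of Slco1c1 was not tested.

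Crym (chr7:120186380-120202111, minus strand) encodes mu-crystallin, a cytosolic protein that binds T3. It was at 28.8 and 29.1 CPM in controls and 17.4 and 17.6 CPM in knockouts. The libraries of each group were nearly equal and the groups were well apart (log2 fold change -0.73 ± 0.07). Per kb of exon, Crym stood above Slco1c1 in controls (8.55 and 7.71 CPM per kb) and below it in knockouts (5.17 and 6.74 CPM per kb).

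Among 15 further carriers and transporters, 2 rose, 1 fell and 5 did not pass the test, and 7 had too few reads to be tested. The median log2 fold change of the 8 tested was 0.11, against 0.00 over all genes. Of these 8, 37.5% were called, against 33.1% of all genes. Slc7a5, the LAT1 subunit that carries thyroid hormones together with large neutral amino acids, rose from 255 to 283 CPM (0.15 ± 0.03 on the log2 scale, adjusted p = 4.3e-05, edgeR). Its partner Slc3a2 was at 198 and 208 CPM (0.06 ± 0.03, adjusted p = 0.0839), and Slc7a8, which encodes LAT2, at 15.6 and 17.3 CPM (0.14 ± 0.08, adjusted p = 0.193).

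Slco1a4, an organic anion transporter of brain endothelium and choroid plexus, had 9 and 5 reads in controls and 25 and 45 in knockouts. The fitted difference was 2.31 ± 0.43 on the log2 scale (adjusted p = 5.0e-05, edgeR), from 1.77 without knockout replicate 2 to 2.83 without control replicate 1. It was 1.90 without control replicate 2 and 2.73 without knockout replicate 1. Slco1a4 has close relatives in the same cluster, and the assignment of reads between them is uncertain. Slco4a1 was at 1.28 and 1.55 CPM (0.27 ± 0.26, adjusted p = 0.464). The serum carriers Alb and Serpina7 had 0 to 2 reads in each library.

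Dio2 (chr12:90724552-90738438, minus strand) encodes the enzyme that makes T3 from T4 inside the cell. It was at 270 and 256 CPM in controls and 90.2 and 88.4 CPM in knockouts. The 2 controls lay well above both knockouts, and the spread within a group was small beside the gap. The log2 fold change was -1.56 ± 0.03, the 136th lowest of 15012 genes. Per kb of exon, Dio2 fell from 45.2 to 15.4 CPM, from rank 971 to rank 3627 of 23376 genes. The ratio of Ttr to Dio2 per kb went from 3.24 and 3.55 in controls to 69.2 and 71.7 in knockouts.

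Dio2 is known in brain from astrocytes and tanycytes. Of 10 astrocyte markers, 6 fell, 3 rose and 1 did not pass the test, against 18.1% of all genes called lower and 15.1% higher. None of the 10 was at 0 in a library. Their summed level was 2785 and 2803 CPM in controls and 2071 and 2070 CPM in knockouts. The median log2 fold change of the list was -0.17, with a range of -1.42 to 0.59. Gfap, the intermediate filament of astrocytes, fell most on the list, from 867 to 326 CPM (log2 fold change -1.42 ± 0.02). Aldh1l1, a folate enzyme used as a general astrocyte marker, fell from 601 to 486 CPM (-0.31 ± 0.02). Slc1a2, the main astrocyte glutamate transporter, fell from 337 to 320 CPM (-0.08 ± 0.03). The 3 markers that rose were the growth factor receptor gene Fgfr3, from 128 to 193 CPM (0.59 ± 0.03), Agt, which encodes angiotensinogen (0.35 ± 0.10), and Aldoc, a glycolytic aldolase (0.12 ± 0.03).

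Of 5 tanycyte markers, 4 were tested, 1 fell and 3 did not pass the test. Their summed level was 30.7 and 32.6 CPM in controls and 16.0 and 17.2 CPM in knockouts. Rax, the transcription factor that defines tanycytes, had 0 and 1 reads in controls and 1 and 1 in knockouts, under the floor of 3 reads. Fndc3c1, an X-linked gene, carried most of the sum and fell from 22.6 to 8.61 CPM (log2 fold change -1.40 ± 0.09). Of 10 meningeal fibroblast markers, 7 fell, 1 rose and 2 did not pass the test. Over all genes, 18.1% were called lower and 15.1% higher. These fibroblast markers summed to 175 to 178 CPM in controls and 56.8 to 60.5 CPM in knockouts. The part of these cell types in the level of Dio2 was not tested.

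**Figure D2:**
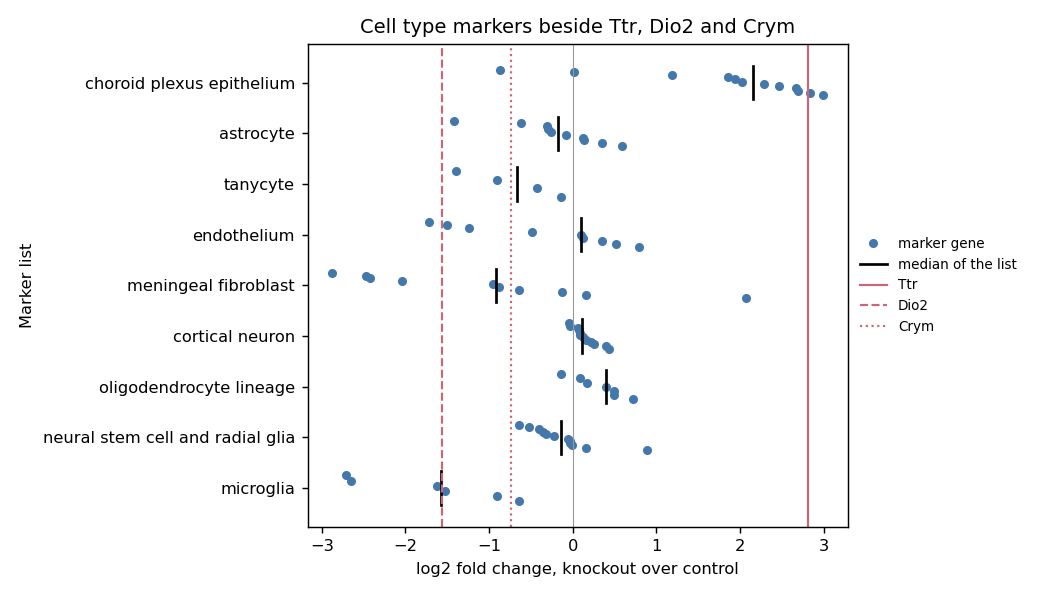
Log2 fold change, knockout over control, of each tested marker gene (points) in 9 cell type lists, with the median of each list (black bars) and the values of Ttr, Dio2 and Crym as vertical lines. Choroid plexus markers run from -0.86 to 2.99 with a median of 2.16, beside 2.81 for Ttr. Astrocyte markers run from -1.42 to 0.59 with a median of -0.17, beside -1.56 for Dio2.

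Dio3 (chr12:110279068-110281097, plus strand) lies in an imprinted cluster on the same chromosome as Dio2 and encodes the inactivating deiodinase. It had 8 and 9 reads in controls and 8 and 5 in knockouts, or 0.302, 0.318, 0.284 and 0.193 CPM. The ratio of the summed reads, knockout over control, was 0.773 (95% exact interval 0.345 to 1.69, counting error only), so a difference was not detectable at this depth. Its antisense neighbour Dio3os had 0 reads in all 4 libraries, and Dio1, the deiodinase of liver and kidney, had 0 to 2. Per kb, Dio2 was 312 and 280 times Dio3 in controls and 111 and 160 times in knockouts, ratios that rest on at most 9 Dio3 reads. Activating enzyme transcripts thus exceeded inactivating ones in every library.

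Of 14 other genes of hormone metabolism and deiodinase turnover, 12 were tested, 1 rose, 2 fell and 9 did not pass the test. Their median log2 fold change was 0.02. Of the 12, 25% were called, against 33.1% of all genes. Wsb1, part of the ubiquitin ligase that marks the type 2 deiodinase for breakdown, fell from 411 to 359 CPM (-0.20 ± 0.02 on the log2 scale, adjusted p = 1.4e-08, edgeR). March6, another ligase of that enzyme, fell from 267 to 255 CPM (-0.08 ± 0.03, adjusted p = 0.0304). Its call was lost in 7 of 14 alternative analyses, among them the omission of control replicate 1, knockout replicate 1 or knockout replicate 2 (adjusted p up to 0.274). The deubiquitinases that reverse the mark were at 45.8 and 49.7 CPM for Usp20 (0.11 ± 0.05, adjusted p = 0.0731) and 103 and 108 CPM for Usp33 (0.06 ± 0.04, adjusted p = 0.190).

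Deiodinases contain selenocysteine, and Trnau1ap, a protein that binds the selenocysteine tRNA, rose from 40.3 to 46.0 CPM (0.18 ± 0.05 on the log2 scale, adjusted p = 0.0065, edgeR). Its call was lost with DESeq2 and without control replicate 1 or knockout replicate 2 (adjusted p up to 0.172). Iyd, which recovers iodide from iodotyrosines, was at 0.801 and 0.520 CPM (-0.64 ± 0.38, adjusted p = 0.204).

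Thra (chr11:98740638-98769006, plus strand) was the main receptor gene. It was at 386 and 401 CPM in controls and 445 and 463 CPM in knockouts. Both knockout libraries were above both controls by a step of about the size of that of Slco1c1, in the other direction. The log2 fold change was 0.20 ± 0.03. Per kb of exon, Thra was at 85.3 CPM in controls and 98.4 CPM in knockouts, and ranked directly after Ttr among the 9 genes in both groups. Of 12 cortical neuron markers, 7 rose and none fell, against 15.1% of all genes called higher and 18.1% lower. These markers summed to 2710 to 2732 CPM in controls and 3102 to 3120 CPM in knockouts. Their part in the level of Thra was not tested.

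Thrb (chr14:17660261-18038090, plus strand) was at 8.15 and 7.04 CPM in controls and 9.32 and 8.67 CPM in knockouts. The groups did not overlap, but the gap between them was narrower than that between the 2 controls. The log2 fold change was 0.24 ± 0.11, and 0.35 without control replicate 1 and 0.14 without control replicate 2. Per kb, Thra stood 76.0 and 91.3 times above Thrb in controls and 76.6 and 85.6 times in knockouts. The groups overlapped in this ratio, and Thrb made up 1.08% to 1.30% of receptor transcripts per kb in each library.

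Gene counts do not separate the Thra transcripts that encode the T3-binding receptor from those that encode the variant that does not bind T3. The 3′ end of Thra overlaps Nr1d1 (chr11:98767932-98775333, minus strand), which encodes the clock repressor REV-ERBα, by 1075 bases, and 2 of the 4 coding Thra transcripts reach into it. Exons of both genes share 263 bases, 5.70% of the Thra exon length and 8.55% of that of Nr1d1. The libraries mark strand, but the sources used here do not give the strand setting of the counting. Nr1d1 was at 103 and 112 CPM in controls and 106 and 113 CPM in knockouts, with overlapping groups. Its log2 fold change was 0.02 ± 0.04 (adjusted p = 0.768, edgeR), and the ratio of Thra to Nr1d1 in CPM was 3.75 and 3.58 in controls and 4.18 and 4.10 in knockouts.

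**Figure D3:**
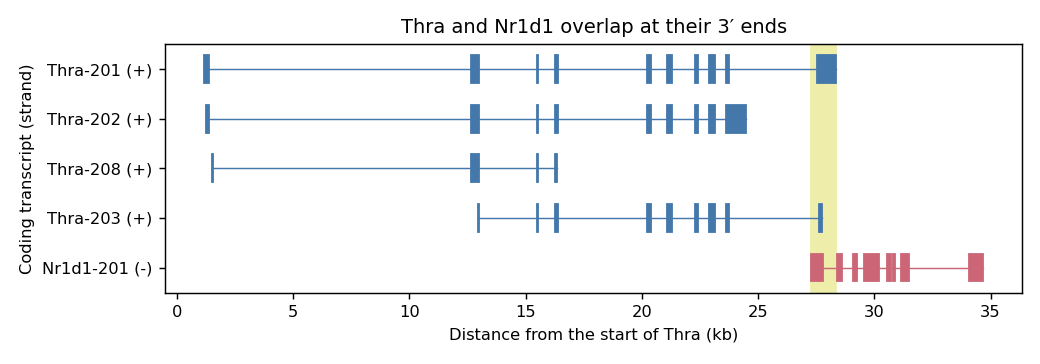
Coding transcripts of Thra (blue, plus strand) and Nr1d1 (red, minus strand) in GENCODE M21, with exons as boxes and distance from the start of Thra in kb. The shaded stretch is the 1075-base overlap; Thra-201 and Thra-203 reach into it and Thra-202 and Thra-208 end before it.

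Among 17 receptor partners and coregulators, all tested, 1 rose, 1 fell and 15 did not pass the test, with a median log2 fold change of 0.02. This list had the fewest calls, 11.8% against 33.1% of all genes. Ncor1, a corepressor of the unliganded receptors, was at 328 and 317 CPM (-0.05 ± 0.03 on the log2 scale, adjusted p = 0.112, edgeR). Ppargc1a, a coactivator of mitochondrial genes, fell from 38.8 to 35.2 CPM (-0.15 ± 0.05, adjusted p = 0.0296). Its call was lost in 6 of 14 alternative analyses, among them the omission of control replicate 1, knockout replicate 1 or knockout replicate 2 (adjusted p up to 0.243). Rxra, a dimer partner of the receptors, was at 25.1 and 23.2 CPM (-0.12 ± 0.07, adjusted p = 0.151). Hdac3 and Gps2, parts of the corepressor complex, were at 98.6 and 104 CPM and at 31.6 and 34.0 CPM, with adjusted p of 0.164 and 0.204.

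Klf9 (chr19:23141226-23168134, plus strand) encodes a zinc finger transcription factor that T3 induces in brain cells. It was at 54.1 and 53.5 CPM in controls and 51.2 and 43.0 CPM in knockouts. Only knockout replicate 2 lay well below the controls. The difference was -0.20 ± 0.05 on the log2 scale, and -0.08 without knockout replicate 2, where Klf9 no longer passed the threshold, and -0.33 without knockout replicate 1. Hr (chr14:70552212-70573548, plus strand) encodes a corepressor that is itself a T3 target. It was at 5.81 and 5.94 CPM in controls and 6.63 and 7.29 CPM in knockouts, a log2 fold change of 0.23 ± 0.12. The differences of Klf9 and Hr lay on opposite sides of 0, each smaller in size than that of Crym.

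Of 21 other genes known to respond to T3 in brain, 18 were tested, 2 rose, 5 fell and 11 did not pass the test. Their median log2 fold change was 0.04. Against 33.1% of all genes, 38.9% of the 18 were called. The largest change was in Aldh1a3, a retinoic acid synthesis enzyme, which was at 21.5 and 23.2 CPM in controls and 10.1 and 10.8 CPM in knockouts (-1.10 ± 0.08, adjusted p = 5.9e-14, edgeR). Nefm, the medium neurofilament subunit, was at 11.4 and 10.5 CPM in controls and fell to 7.98 and 7.25 CPM in knockouts (-0.53 ± 0.10, adjusted p = 0.000108). Dbp, a clock-controlled transcription factor, fell from 18.5 to 13.3 CPM (-0.48 ± 0.08, adjusted p = 1.5e-05). Reln, the matrix protein reelin, fell from 137 to 120 CPM (-0.20 ± 0.03, adjusted p = 1.3e-05).

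Me1, the cytosolic malic enzyme, fell from 166 to 148 CPM (-0.17 ± 0.03 on the log2 scale, adjusted p = 4.4e-05, edgeR). Nrgn, a calmodulin-binding protein of neurons, rose from 61.5 to 75.9 CPM (0.29 ± 0.04, adjusted p = 1.4e-06). The other riser was Calb1, named after its value was seen. Genes of this list are induced or repressed by T3 depending on cell and age, so their directions were not scored.

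Over the 4 lists together, 55 of 67 genes were tested, of which 6 rose, 9 fell and 40 did not pass the test. That is 27.3% called, against 33.1% of all genes. In the plot of fold changes, Slco1a4, Aldh1a3 and Iyd are the listed genes farthest from 0 and the coregulators lie closest to it.

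**Figure D4:**
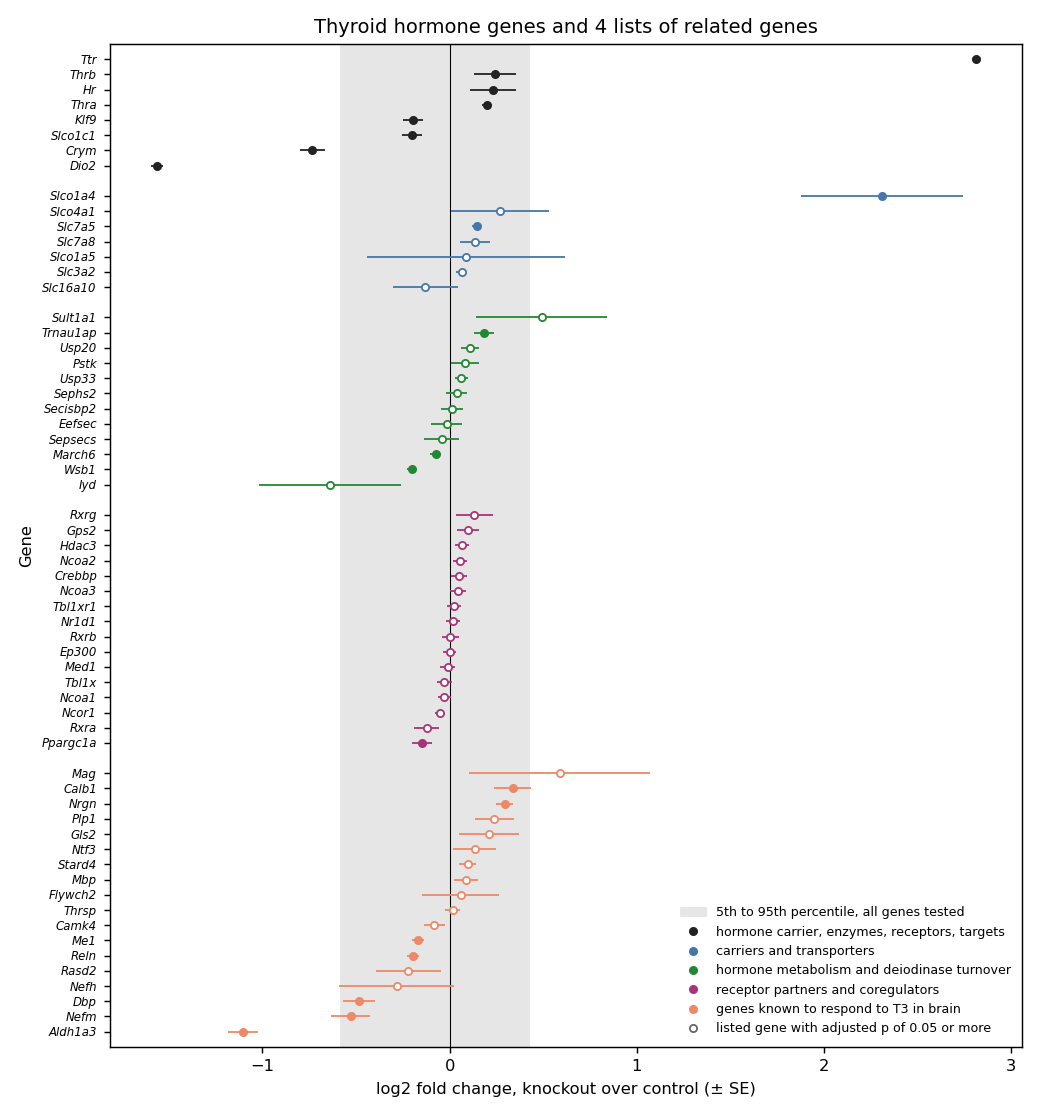
Log2 fold change, knockout over control, ± SE (n = 2 libraries per group) of the 8 fitted thyroid hormone genes (black) and of tested genes of 4 related lists (colours); open points have an adjusted p of 0.05 or more, and no test is shown for the black points. The grey band spans the 5th to 95th percentile of all 15012 genes, -0.58 to 0.42, and Ttr at 2.81, Slco1a4 at 2.31 and Dio2 at -1.56 lie farthest outside it.

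The genes whose pattern was nearest to that of Ttr, Dio2 and Crym were found by the Euclidean distance over the 4 libraries, in log2 CPM centred on each gene's mean, among 11069 genes with a mean of at least 3. Nearest to Ttr were Col8a1, a basement membrane collagen (distance 0.645), Aqp1 (0.990) and 1500015O10Rik (1.51). Col8a1 was at 5.25 and 6.05 CPM in controls and 27.1 and 25.0 CPM in knockouts. None of the 3 changed as much as Ttr, with log2 fold changes of 2.19, 1.86 and 1.31. Choroid plexus markers under the required mean, among them Folr1 with a log2 fold change of 2.99, were not compared.

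Nearest to Dio2 were Cp, the iron oxidase ceruloplasmin (distance 0.0833), H2-Q4 (0.128) and Cyp1b1, a cytochrome P450 enzyme (0.134). Cp was at 105 and 102 CPM in controls and 33.4 and 33.6 CPM in knockouts, a log2 fold change of -1.64 ± 0.04. H2-Q4 belongs to a family of near-identical class I genes, and its count is uncertain. Nearest to Crym were Aox1, an aldehyde oxidase (0.0297), Dusp6, a phosphatase that acts on ERK (0.0323), and Arl4c, a small GTPase (0.0348), with log2 fold changes of -0.75, -0.70 and -0.74. With 2 libraries per group these distances mostly reflect the size of the difference between groups.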

How the data were processed

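Reads were aligned to mm10 with HISAT2 2.2.1 and counted with HTSeq 0.12.4, and DESeq2 1.26.0 was used by the submitters, per the submitters' processing notes. The sources used here do not give the strand setting or annotation of the counting. The values used are the deposited raw counts per gene symbol in 4 libraries. The 5 summary lines of each file, equal to 25.2% to 26.1% of its reads, were left out of all totals. CPM is a gene's count per 1e6 counts of the remaining total.

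Genes were filtered by edgeR's filterByExpr, scaled by TMM and fitted with edgeR 4.0.16 (glmQLFit, glmQLFTest; R 4.3.3), without a replicate block, and p-values were adjusted by Benjamini-Hochberg over 15012 genes, with a threshold of 0.05. Scripts were tested on simulated data. Between libraries of a group, the chi-square per gene was 1.96 and 2.20, against 20.4 to 21.2 between groups. Positions and exon lengths came from GENCODE M21 (GRCm38), in which 23376 of 24421 symbols were found, and promoter sequences from RefSeq.

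The 9 genes, the related lists and the markers were chosen with earlier results of these data known. Genes named are the 9 genes, in each of 4 lists the 6 of smallest p, Dio1, Dio3os, Nr1d1, Prrc2b, Nes, Xist and 4 Y-linked genes, the 3 genes nearest in pattern to each of the 9 with a log2 fold change of at least 0.5 in size, and the 3 most abundant markers of a cell type; Folr1, Prlr, Rax, Fgfr3, Agt, Aldoc, Alb, Serpina7 and Calb1 were added after their values were seen. Some genes that this rule names are counted in their lists and not reported here by name. Tried as alternatives were upper quartile, DESeq2-style and total count scaling, no filter and 1 CPM in 2 libraries, DESeq2 1.42.0, limma 3.58.1 (voom), the legacy quasi-likelihood fit, a replicate block, each library left out, and the X and Y genes left out.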

Additional observations from a re-analysis of the deposited data

How the results depend on the processing

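Since the thyroid hormone genes were chosen from this contrast, which of them passed the threshold is given here only to show what each setting changes, and supports no change of theirs. Over 14 alternative analyses no log2 fold change of the 8 fitted thyroid hormone genes changed sign. Ttr stayed between 2.79 and 2.84, Dio2 between -1.60 and -1.53, Crym between -0.74 and -0.71, Thra between 0.17 and 0.23 and Hr between 0.17 and 0.30. With DESeq2 the genes called over the whole table were 1055 higher and 1642 lower, against 2263 and 2711, and 2 of the 8 genes were called lower, against 4. Slco1c1 (-0.20, adjusted p = 0.0711) and Klf9 (-0.20, adjusted p = 0.0798) were the 2 lost. Klf9 was also not called with no low-count filter (-0.20, adjusted p = 0.0673); with a library left out it ranged from -0.33 to -0.079, and it was not called without knockout replicate 2 (-0.079, adjusted p = 0.341). Thrb ranged from 0.14 to 0.35 with a library left out and was called without control replicate 1 (0.35, adjusted p = 0.0461; 0.0461 to 0.504 over the alternatives). With upper quartile scaling 2939 genes were called higher and 2288 lower, and 11 listed pathway genes higher and 7 lower, against 6 and 9; this scaling moved the median of all genes to 0.03. With a library left out, 1738 to 1843 genes were called higher and 2249 to 2442 lower. Nr1d1 changed sign without control replicate 1 (-0.041) and without knockout replicate 2 (-0.025). Same-numbered libraries deviated together only weakly (correlation 0.0922 over 11076 genes), and with a replicate block 2442 genes were called higher and 2881 lower, with 2 and 4 of the 8 genes and 6 and 9 of the listed genes. Depth limits Dio3 and 12 listed genes with too few reads, among them Dio1 and Dio3os. The cause of these shifts was not tested.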
